A study of Zea mays with 12 samples.

Results

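The change of gene expression in the wild-type (WT) maize kernel between 12 and 20 days after pollination (DAP) was examined in the 6 WT libraries of a series of 12 RNA-seq libraries. There were 3 biological replicates at 12 DAP and 3 at 20 DAP. No library of the small-kernel mutant *smk7a* entered this comparison, and the 6 *smk7a* libraries were used only to ask whether the stage change differed between the genotypes. *smk7a* is a recessive mutant that was induced with ethyl methanesulfonate, a chemical mutagen, in the B73 inbred line. The WT kernels came from M8 ears on which the mutation segregated, so kernels that carry 1 copy of it may be among them. The kernels received no treatment, and how many kernels and ears went into a replicate is not given in the sources used here.

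A maize kernel holds the maternal pericarp, the endosperm and the embryo. In the early kernel the endosperm divides and forms its tissues, among them the basal endosperm transfer layer (BETL), whose cells take up sugars and amino acids from the mother plant, and the starchy endosperm. During filling the starchy endosperm deposits starch in plastids called amyloplasts and stores zein proteins, while the embryo lays down oil and late embryogenesis abundant (LEA) proteins. Since RNA was taken from whole kernels, fewer cells of a tissue and less RNA per cell cannot be told apart in any of the values below.

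The expression level of a gene is given in FPKM, its mapped fragments scaled to the length of its transcript and to all mapped fragments of the library. The copy of the table analysed here covers 720 genes, and 188 of them were listed at 0 in all 6 WT libraries. Between 344 and 354 genes were above 1 FPKM in each 12 DAP library, and between 319 and 326 genes in each 20 DAP library. FPKM values do not carry the depth in reads, which was not used here. The label of the tissue was checked against defining genes. The endosperm genes *Zm00001d000161* (basal endosperm transfer layer4, *BETL4*), *Zm00001d000418* (endosperm specific protein1) and *Zm00001d000002* (dull endosperm1) were among the abundant genes at both stages. Of 7 genes described as LEA proteins, 6 were listed at 0 in all 6 libraries and 1 was above 1 FPKM. The 5 listed genes with the GO term for nutrient reservoir activity reached at most 0.143 FPKM. Of 6 genes described as parts of a photosystem, 4 were listed at 0 and 1 was above 1 FPKM. No described marker of the aleurone, the embryo-surrounding region or the pericarp was found among the 720 genes, so these tissues were not followed.

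The listed genes as a whole were lower at 20 DAP. Their summed expression was 4623 ± 314 FPKM at 12 DAP and 3119 ± 221 FPKM at 20 DAP (SD, n = 3). Among the 344 genes above 1 FPKM in at least 3 of the 6 WT libraries, the median log2 fold change of FPKM + 0.1 was -0.55, which is 0.685 times the level at 12 DAP, and 291 genes (84.6%) had a value below 0. FPKM is a share of the whole library, so less RNA of these genes and more RNA of genes not analysed here cannot be told apart. Each change was therefore also computed after median of ratios scaling over the 344 genes. The scaling moved the median log2 fold change by 0.54 to -0.00. Its factors come from these same genes, so a median near 0 was fixed by construction. Values after scaling are changes relative to the other listed genes.

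A gene was called changed when its fold change was above 2 and its Benjamini-Hochberg adjusted p-value from limma was under 0.05. With the FPKM as deposited, 61 of the 344 genes were called (17.7%), of which 7 were higher (2.03%) and 54 were lower (15.7%) at 20 DAP. Without the fold threshold, 15 genes were higher (4.36%) and 195 were lower (56.7%). After median of ratios scaling, 32 genes were called (9.3%), of which 17 were higher (4.94%) and 15 were lower (4.36%). The share of lower genes among the calls was thus 88.5% as deposited and 46.9% after scaling. The 7 higher genes and 15 of the 54 lower genes were called in both ways, and 39 of the 54 kept an adjusted p-value under 0.05 in the lower direction after scaling. The 10 further genes that were called higher after scaling also had the higher mean FPKM at 20 DAP.

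**Figure D1:**
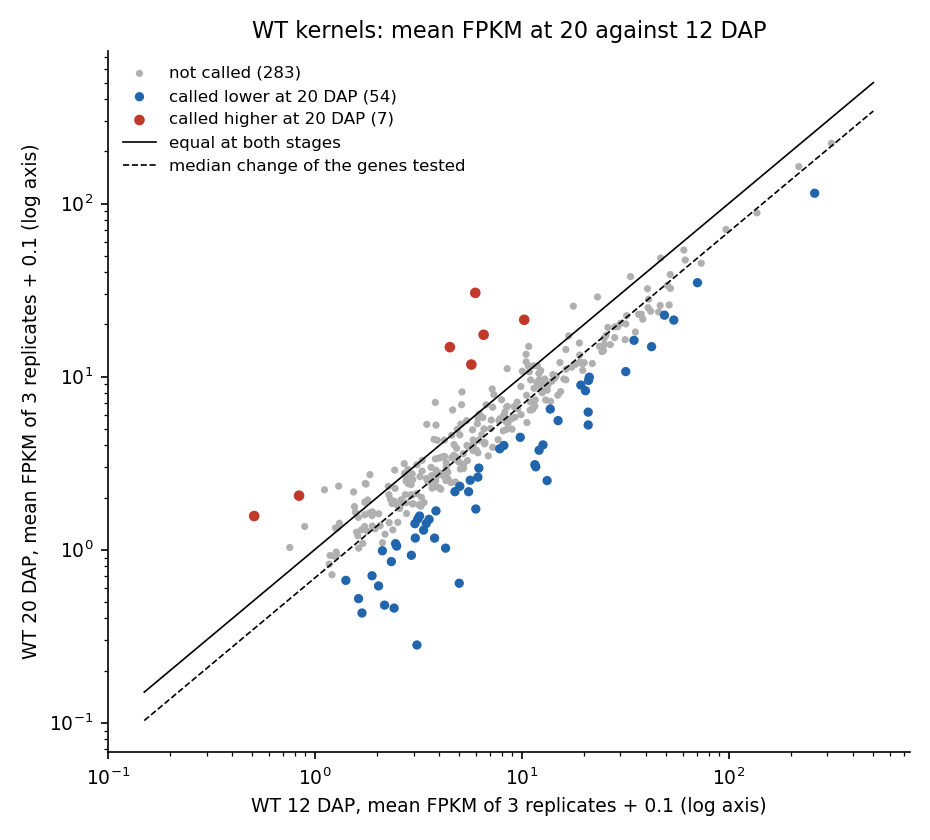
Mean FPKM + 0.1 of the 3 WT replicates at 20 DAP against 12 DAP, both on log axes, for the 344 genes tested. The 54 genes called lower and the 7 called higher are coloured, the solid line marks equal levels and the dashed line marks the median change of -0.55 (log2), below which most of the called genes lie. After median of ratios scaling the dashed line becomes the line of no change, and 15 genes are then called lower and 17 higher.

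The replicate values of the 2 stages did not overlap for 233 of the 344 genes (67.7%), with 217 lower (63.1%) and 16 higher (4.65%) at 20 DAP. They did not overlap for any of the 54 genes called lower or for 5 of the 7 called higher. A two-sided exact permutation test of 3 against 3 libraries cannot go below p = 0.1, so single genes rest on the limma fit. Because of the filter on low values, 11 genes were tested only through the 12 DAP libraries and 2 only through the 20 DAP libraries, and all 13 were called. Their lack of overlap was fixed by the filter as well, although they are included in the counts above. Their being called was built into the filter, and neither is counted as support.

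The libraries within a stage were not alike. For replicate 2 of 20 DAP, the median of the log2 differences from the other 20 DAP libraries was -0.19. Replicate 3 of 12 DAP was the one nearest to the 20 DAP mean for 213 of the 344 genes, against 58 for replicate 1 and 73 for replicate 2. The median of its log2 differences from the other 12 DAP libraries was -0.20. It held the lowest 12 DAP value of 38 of the 54 lower genes and the highest 12 DAP value of 6 of the 7 higher genes. Without it, 66 genes were called, 10 higher and 56 lower. Without replicate 1 or replicate 2 of 12 DAP, 49 and 47 genes were called, and without a 20 DAP library between 61 and 65. Because of the filter, each fit without a 12 DAP library tested only 50 of the 61 genes. Of these 50, 4 lost the call without replicate 1, 7 without replicate 2 and 1 without replicate 3. Of the 61 genes, 46 were called in every fit that tested them. The other 15 lost the call in at least 1 fit, all through a fold change under 2, and only *Zm00001d001996* went above an adjusted p-value of 0.05 as well.

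The 7 genes called higher at 20 DAP were a peroxidase, a pair of wound-responsive genes, a pair of transcription factors and a pair without description. The largest rise was that of *Zm00001d000429*, which has no description. Its level was 6.47, 4.02 and 7.11 FPKM in the 12 DAP replicates and 32.4, 20.8 and 37.9 FPKM in the 20 DAP replicates. Every 20 DAP value was above every 12 DAP value, with a log2 fold change of 2.35 ± 0.26 (SE, limma, adjusted p = 8.52e-05), or 2.90 after scaling. In 1 fit over all 12 libraries, which shares the spread with *smk7a*, the SE was 1.26 and the call was lost (adjusted p = 0.116). *Zm00001d002004* (Peroxidase 16), by its description a member of the class of heme enzymes that oxidise substrates with hydrogen peroxide, measured 4.03, 3.97 and 5.19 FPKM at 12 DAP and 16.5, 12.8 and 14.8 FPKM at 20 DAP. The groups were far apart and tight, and the log2 fold change was 1.72 ± 0.17 (SE, limma, adjusted p = 7.03e-05), or 2.27 after scaling. These 2 genes were the higher ones that were called in all 6 fits with 1 library left out.

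Transcription factors with a low level were also higher. *Zm00001d002088* (DNA-binding WRKY), of a plant family of regulators known from defence and senescence, measured 0.372, 0.0732 and 0.784 FPKM at 12 DAP and 1.49, 1.80 and 1.101 FPKM at 20 DAP. The stages did not overlap, but all values were low, and the log2 fold change of 1.88 ± 0.60 (SE, limma, adjusted p = 0.0183) carries the largest error among the higher genes. *Zm00001d002025* (AP2-like ethylene-responsive transcription factor *AIL5*), whose relatives in *Arabidopsis* keep embryonic and meristem cells dividing, measured 0.615, 0.858 and 0.747 FPKM at 12 DAP and 2.11, 1.52 and 2.22 FPKM at 20 DAP. It was 2.43-fold higher with no overlap (log2 fold change of 1.28, limma, adjusted p = 0.00406), and 1.78 on the log2 scale after scaling. Both genes entered the test only through the 20 DAP libraries, so their lack of overlap was fixed by the filter. At a pseudocount of 1 FPKM their log2 fold changes were 0.83 and 0.76, below the fold threshold.

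Genes described as wound-responsive family proteins carry neighbouring identifiers and may be close copies, between which the reads could be split. *Zm00001d002160* measured 5.23, 8.74 and 16.6 FPKM at 12 DAP and 22.9, 17.4 and 23.3 FPKM at 20 DAP. The highest 12 DAP value, of replicate 3, lay just below the lowest 20 DAP value, and the log2 fold change was 1.19 ± 0.32 (SE, limma, adjusted p = 0.00861), or 0.80 without 12 DAP replicate 1. *Zm00001d002158* measured 5.95, 2.81 and 10.6 FPKM at 12 DAP and 16.6, 8.90 and 26.5 FPKM at 20 DAP. Its stages overlapped through replicate 3 of 12 DAP and replicate 2 of 20 DAP, and it was called with 1.47 (limma, adjusted p = 0.0137) but not without 12 DAP replicate 2 (0.98). *Zm00001d002161* went from 2.45, 4.39 and 4.34 FPKM to 6.0, 5.56 and 9.41 FPKM without overlap. It was below the fold threshold as deposited (0.90, limma, adjusted p = 0.0101) and called after scaling (1.44). The remaining called gene, *Zm00001d001996*, has no description, and its 12 DAP replicate 3 (11.01 FPKM) lay within the 20 DAP range of 10.2 to 13.98 FPKM, whereas replicates 1 and 2 were at 3.31 and 2.51 FPKM. Its log2 fold change was 1.33 (limma, adjusted p = 0.0158), and it lost the call without 12 DAP replicate 2 (0.92, adjusted p = 0.0522).

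Other genes were higher in FPKM by less than 2-fold and passed both thresholds only relative to the other listed genes. Among them was *Zm00001d002119* (ABC transporter B family member 19), which carries auxin out of cells in *Arabidopsis*. It measured 0.935, 1.17 and 1.52 FPKM at 12 DAP and 2.31, 1.81 and 2.57 FPKM at 20 DAP, with log2 fold changes of 0.85 as deposited and 1.36 after scaling (limma, adjusted p = 0.0135 and 0.00667). *Zm00001d002137* (precursor elicitor peptide1), the precursor of a peptide that triggers defence, stood at 3.42, 3.26 and 3.46 FPKM and then at 4.24, 5.35 and 5.99 FPKM, with 0.59 as deposited and 1.13 after scaling (limma, adjusted p = 0.0101 and 0.00403). *Zm00001d001959* (GTP cyclohydrolase I 1), the entry enzyme of folate synthesis, stood at 9.85, 11.8 and 10.5 FPKM and then at 14.6, 12.7 and 17.2 FPKM, with 0.46 and 1.01, respectively. In all 3 genes each 20 DAP value exceeded each 12 DAP value.

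**Figure D2:**
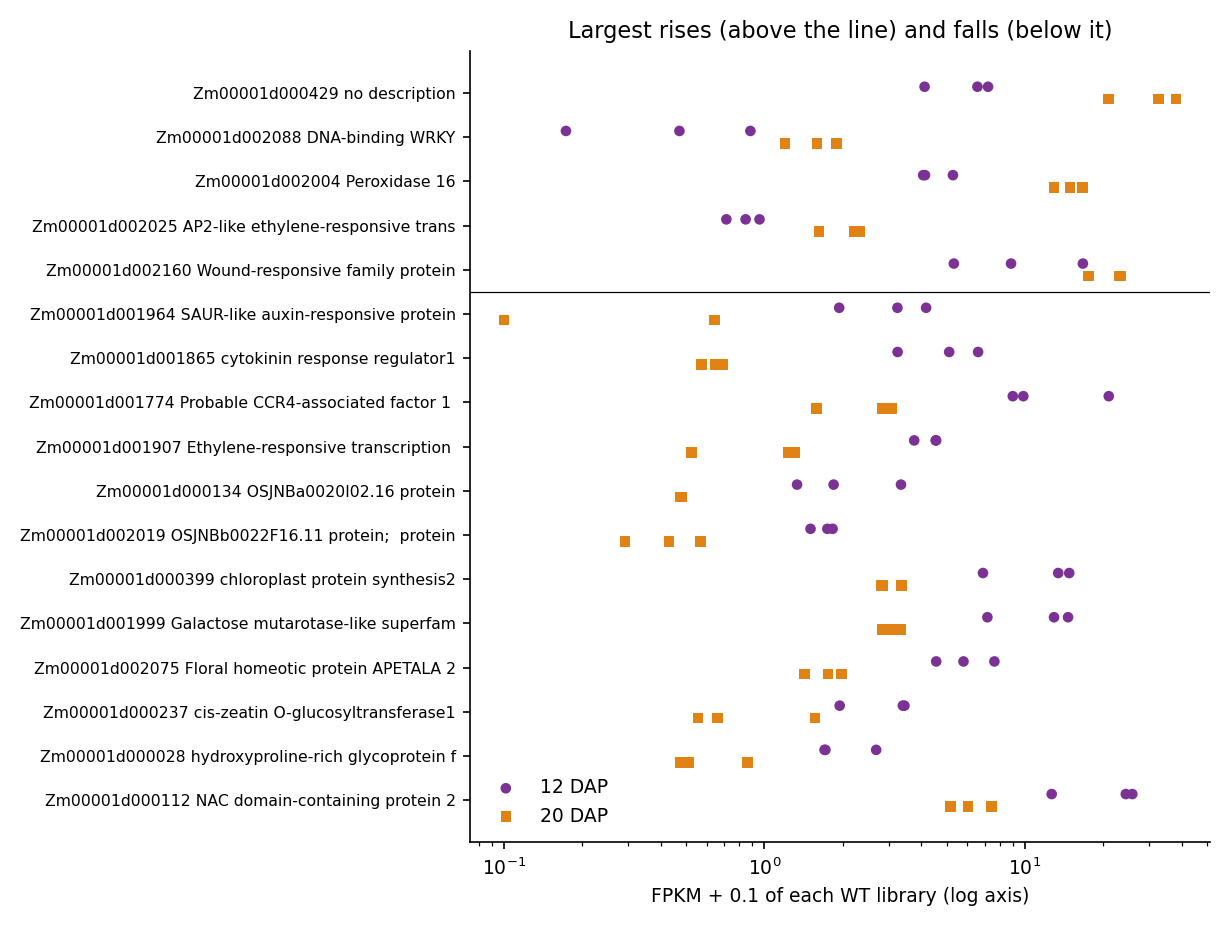
FPKM + 0.1 of each WT library on a log axis for the 5 largest rises and the 12 largest falls among genes whose stages do not overlap and whose direction keeps an adjusted p-value under 0.05 after median of ratios scaling. Circles are the 3 replicates at 12 DAP and squares those at 20 DAP. In the SAUR-like gene 2 of the 20 DAP squares lie on each other at 0 FPKM.

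Genes of cytokinin signalling and of auxin response were among the largest falls. *Zm00001d001865* (cytokinin response regulator1) belongs to the regulators that are phosphorylated at the end of the cytokinin relay. Its level was 6.51, 5.02 and 3.14 FPKM at 12 DAP and 0.474, 0.593 and 0.550 FPKM at 20 DAP. The stages were widely separated, with a log2 fold change of -2.91 ± 0.28 (SE, limma, adjusted p = 7.03e-05), or -2.40 after scaling. *Zm00001d000134*, annotated with the cytokinin-activated signalling pathway, measured 3.24, 1.23 and 1.74 FPKM at 12 DAP and 0.377, 0.374 and 0.382 FPKM at 20 DAP, so that the 20 DAP replicates were nearly equal and low. Its log2 fold change was -2.08 ± 0.42 (SE, limma, adjusted p = 0.00236), or -1.60 after scaling. *Zm00001d000237* (cis-zeatin O-glucosyltransferase1), whose enzyme stores the cytokinin cis-zeatin as a glucoside, measured 3.35, 3.30 and 1.85 FPKM at 12 DAP and 1.46, 0.562 and 0.456 FPKM at 20 DAP. It was lower in every 20 DAP library, with -1.77 ± 0.39 (SE, limma, adjusted p = 0.00342), or -1.26 after scaling.

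Of the 5 tested genes whose annotation names cytokinin or zeatin, these 3 were called lower and none higher, and the same 3 were called after scaling. The first 2 were tested only through the 12 DAP libraries, where they are high. The separation of their stages, their calls and their part in the list median of -1.77 were therefore built into the filter. Leaving out all genes tested through 1 stage only, a choice made after seeing the data, 1 of 3 cytokinin genes was called lower at a median of -0.66, beside -0.53 over the 331 genes left. Without any single library of 12 DAP, 1 call was left as well. At a pseudocount of 1 FPKM the log2 fold changes of the 3 genes were -1.89, -1.11 and -1.08. Among 11 tested auxin genes, 1 was called lower and 1 higher, and the list median was -0.30. The higher one was *AIL5*. The lower one, *Zm00001d001964*, is a SAUR-like auxin-responsive gene of a family whose transcripts appear early after auxin. It measured 3.14, 4.07 and 1.84 FPKM at 12 DAP, was listed at 0 in replicates 1 and 2 of 20 DAP and stood at 0.543 FPKM in replicate 3. The stages did not overlap, but the fitted size depends on the pseudocount, with a log2 fold change of -4.00 at 0.1 FPKM (limma, adjusted p = 0.00134) and -1.76 at 1 FPKM. The gene was tested only through the 12 DAP libraries, so its call and its lack of overlap were built into the filter. Leaving out all genes tested through 1 stage only, 0 of 9 auxin genes were called. After scaling, 2 auxin genes were called higher and 1 lower, with *ABCB19* described above as the added one. The auxin counts moved with single libraries, to 0 lower without replicate 1 or 2 of 12 DAP, 2 higher and 2 lower without replicate 3 of 12 DAP, 3 lower without replicate 1 of 20 DAP, and 0 higher without any single library of 20 DAP. The SAUR-like gene did not pass the filter without any single library of 12 DAP, nor *AIL5* without any single one of 20 DAP.

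Of 22 tested genes in the transcription factor list, 2 were called higher, beside 2.03% of all genes, and 4 lower, beside 15.7%. The higher ones were the WRKY gene and *AIL5*. The list median was -0.51, and 3 were called higher and 2 lower after scaling. Both higher genes were tested only through the 20 DAP libraries, and without any single one of these neither passed the filter. *Zm00001d001907* (Ethylene-responsive transcription factor 7), whose *Arabidopsis* namesake is a transcriptional repressor, measured 4.46, 4.44 and 3.66 FPKM at 12 DAP and 0.424, 1.20 and 1.13 FPKM at 20 DAP. Its log2 fold change was -2.18 (limma, adjusted p = 0.00036), or -1.66 after scaling and -1.46 at a pseudocount of 1 FPKM. *Zm00001d002075* (Floral homeotic protein APETALA 2), whose *Arabidopsis* relative limits seed size and specifies floral organs, measured 7.53, 5.71 and 4.46 FPKM at 12 DAP and 1.87, 1.32 and 1.66 FPKM at 20 DAP. The lowest 12 DAP value was more than the highest 20 DAP value in both genes, and here the log2 fold change was -1.79 (limma, adjusted p = 0.00017), or -1.25 after scaling.

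Another gene called lower, *Zm00001d000112* (NAC domain-containing protein 2), belongs to a plant family of regulators that includes stress and senescence factors. The word search for the transcription factor list missed it, so it is not in the counts of that list. It measured 25.7, 24.3 and 12.6 FPKM at 12 DAP and 5.95, 5.09 and 7.35 FPKM at 20 DAP. Replicate 3 of 12 DAP was the lowest of its stage and still above all 20 DAP values, and the log2 fold change was -1.70 (limma, adjusted p = 0.000423), or -1.15 after scaling. *Zm00001d002079*, described as a dehydration responsive element binding protein, was lower by -1.30 (limma, adjusted p = 0.00244), with -0.78 and an adjusted p of 0.0771 after scaling. *Zm00001d000184* (single-repeat Myb protein1) was lower by -1.14 (limma, adjusted p = 0.000315), with -0.60 after scaling. Of 13 genes annotated with ethylene, jasmonate or gibberellin, 1 was called higher and 3 lower with a median of -0.42, and these 4 are the *AIL5*, ERF, dehydration and Myb genes already named. After scaling 1 was called in each direction. Without replicate 1 of 20 DAP this count was 0 higher and 2 lower, the dehydration gene going to -0.996, and without replicate 2 or 3 of 20 DAP it was 0 higher and 3 lower.

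The endosperm genes were abundant at both stages and lower at 20 DAP by different amounts. *BETL4*, a small secreted protein gene of the transfer layer, measured 270.7, 252.4 and 257.8 FPKM at 12 DAP and 124, 88.0 and 132 FPKM at 20 DAP. Every 12 DAP library was far above the highest 20 DAP library, and the log2 fold change was -1.20 ± 0.13 (SE, limma, adjusted p = 8.52e-05). Its share of all listed FPKM went from 5.65% ± 0.387 to 3.65% ± 0.515 (SD, n = 3), and after scaling its log2 fold change was -0.65 with an adjusted p of 0.00784, below the fold threshold. *BETL4* was the only gene of the table that matched the transfer layer markers, so no other gene of that tissue could be set beside it.

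The starchy endosperm genes did not pass the fold threshold. *Dull endosperm1*, a starch synthase of the amyloplast, measured 53.7, 58.5 and 44.5 FPKM at 12 DAP and 36.3, 31.7 and 28.7 FPKM at 20 DAP, a log2 fold change of -0.69 (limma, adjusted p = 0.00305) that was close to the median of all genes (-0.14, adjusted p = 0.422 after scaling). *Endosperm specific protein1* measured 200, 238 and 217 FPKM and then 171, 162 and 158 FPKM. Its values did not overlap, yet its direction depended on the scaling, with -0.41 as deposited (limma, adjusted p = 0.0025) and 0.14 after scaling (adjusted p = 0.32). *Zm00001d000021* (glucose 6-phosphate/phosphate translocator1), which brings hexose phosphate into plastids, was among the steadiest genes within a stage, with 136, 133 and 142 FPKM at 12 DAP and 87.1, 89.2 and 88.4 FPKM at 20 DAP. The log2 fold change was -0.63 (limma, adjusted p = 0.000307), or -0.08 after scaling (adjusted p = 0.632).

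**Figure D3:**
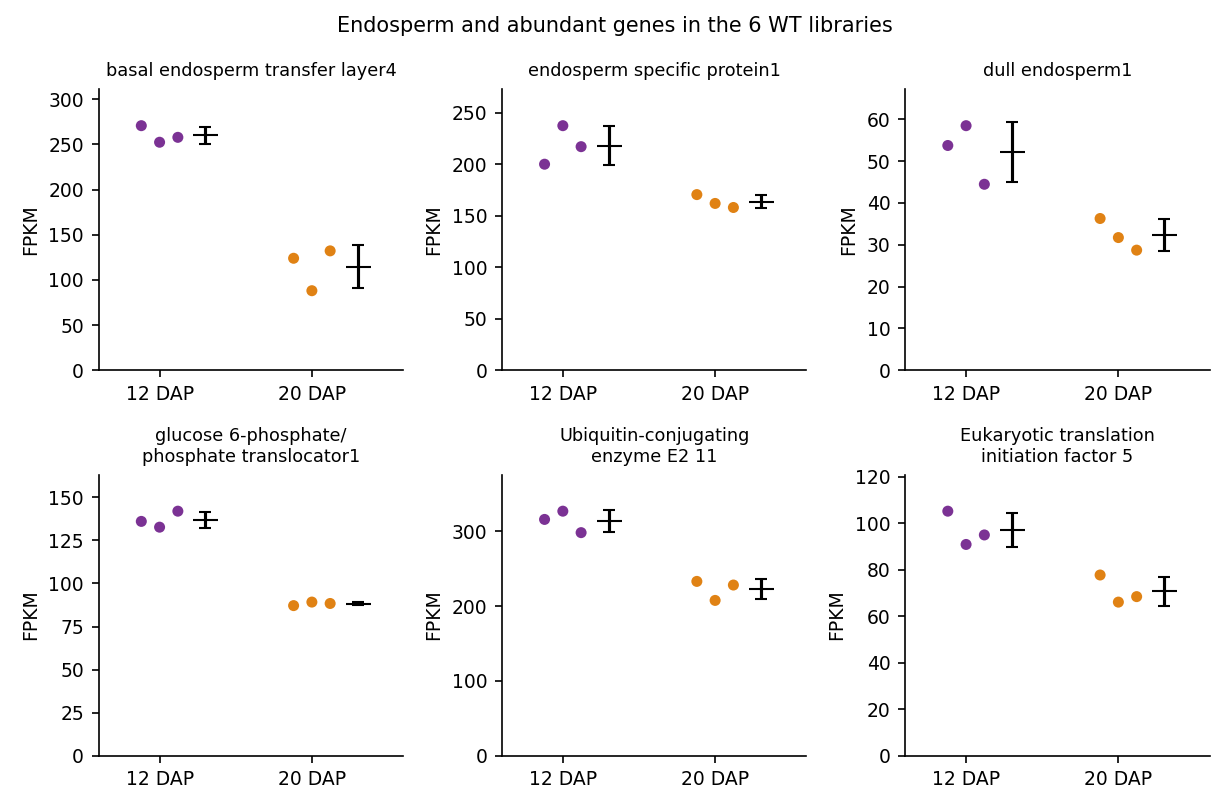
FPKM of 6 abundant genes in the 3 WT libraries of each stage (points), with the mean and SD beside them, on axes that start at 0. All 6 genes were lower at 20 DAP in FPKM, and only *BETL4* passed a fold change of 2. After median of ratios scaling *endosperm specific protein1*, *Ubiquitin-conjugating enzyme E2 11* and *Eukaryotic translation initiation factor 5* had log2 fold changes above 0 (0.14, 0.06 and 0.10).

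Of 8 tested genes of sugar and starch metabolism, 3 were called lower, beside 15.7% of all genes, and none higher, with a list median of -0.78, and 1 was called lower after scaling. The one called both ways was *Zm00001d001999* (Galactose mutarotase-like superfamily protein), annotated as a glucose-6-phosphate epimerase. It measured 12.8, 14.5 and 7.07 FPKM at 12 DAP and 3.02, 2.74 and 3.23 FPKM at 20 DAP, a log2 fold change of -1.84 (limma, adjusted p = 0.000291), or -1.30 after scaling. *Zm00001d000227* (Pyruvate dehydrogenase E1 component subunit beta), of the plastid complex that makes acetyl-CoA, measured 78.2, 79.8 and 53.7 FPKM and then 38.1, 29.5 and 36.8 FPKM. It did not overlap between the stages but sat at the fold threshold (-1.004, limma, adjusted p = 0.000893) and fell short of it without replicate 1 or 2 of 12 DAP or replicate 2 of 20 DAP (-0.92, -0.90 and -0.89). The Myb gene was the third member called.

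Carriers of nutrients differed among themselves. *Zm00001d001984* (Probable amino acid permease 7), of a family that imports amino acids, measured 14.9, 17.5 and 12.2 FPKM at 12 DAP and 6.04, 5.53 and 4.82 FPKM at 20 DAP. It was 2.68-fold lower with no overlap (log2 fold change of -1.42, limma, adjusted p = 0.000256), or -0.87 on the log2 scale after scaling, with an adjusted p of 0.00479. *Zm00001d000204* (Probable sulfate transporter 3.4) measured 61.6, 41.4 and 24.0 FPKM at 12 DAP and 15.98, 12.8 and 15.5 FPKM at 20 DAP. Its 12 DAP replicates were spread widely and all lay above those of 20 DAP (-1.41 ± 0.27, SE, limma, adjusted p = 0.00193), with -0.86 after scaling. *Zm00001d000183* (monosaccharide transporter4) showed no call as deposited, with 1.07, 1.102 and 2.15 FPKM and then 2.15, 1.70 and 2.32 FPKM (0.54, limma, adjusted p = 0.117). It was called higher after scaling (1.06, adjusted p = 0.0351), although its 12 DAP replicate 3 lay within the 20 DAP range. The transport list therefore held 1 lower and 0 higher genes of 2 tested as deposited, and 0 lower and 1 higher after scaling, with a median of -0.44.

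Sugar genes named in the study for the mutant were also read in the WT. *Zm00001d000222*, a SWEET gene whose family exports sugars across the plasma membrane, measured 12.8, 10.8 and 9.004 FPKM at 12 DAP and 6.14, 5.15 and 7.61 FPKM at 20 DAP. It did not overlap and stayed under the fold threshold (-0.78, limma, adjusted p = 0.00552), and after scaling it was at -0.24 (adjusted p = 0.288). *Zm00001d001941* (invertase cell wall4), an enzyme that splits sucrose outside the cell, stayed between 0.0710 and 0.425 FPKM in all 6 libraries and was not tested.

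The chloroplast and plastid list was the largest, with 45 tested genes, of which 11 (24.4%) were called lower and none higher, beside 15.7% lower among all genes. Its median was -0.69. Leaving out genes tested through 1 stage only, 10 of 44 were called lower, beside 43 of 331 among all genes. After scaling, 1 gene remained called. That gene was *Zm00001d000399* (chloroplast protein synthesis2), annotated with protein refolding in the chloroplast. It measured 13.3, 14.7 and 6.80 FPKM at 12 DAP and 3.27, 2.74 and 2.72 FPKM at 20 DAP, a log2 fold change of -1.89 (limma, adjusted p = 0.000291), or -1.35 after scaling. *Zm00001d000019*, annotated as a peptidase of the chloroplast stroma, was uneven within each stage, with 36.5, 12.6 and 13.4 FPKM and then 4.24, 2.24 and 8.98 FPKM. The 12 DAP values were above those of 20 DAP in all libraries, and the log2 fold change was -2.03 ± 0.47 (SE, limma, adjusted p = 0.00399), with -1.49 and an adjusted p of 0.0593 after scaling.

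Plastid assembly and metabolic enzymes followed with smaller changes. *Zm00001d001812* (Rubisco Assembly Factor 1), a chaperone of the carbon-fixing enzyme, measured 3.26, 2.82 and 3.69 FPKM at 12 DAP and 1.51, 1.08 and 0.997 FPKM at 20 DAP (-1.39, limma, adjusted p = 0.000614, and -0.86 after scaling). *Zm00001d002051* (D-3-phosphoglycerate dehydrogenase 3), the entry enzyme of plastid serine synthesis, measured 65.2, 63.0 and 34.6 FPKM and then 24.0, 17.8 and 21.6 FPKM (-1.31, limma, adjusted p = 0.000946, and -0.76 after scaling). *Zm00001d002028* (Protein FATTY ACID EXPORT 2), of a family that carries fatty acids out of plastids, measured 53.4, 52.7 and 40.6 FPKM and then 20.6, 23.8 and 23.2 FPKM (-1.10, limma, adjusted p = 0.000291, and -0.55 after scaling). In each of these 3 genes the stages were separated, and in the last 2 replicate 3 was the lowest of the 12 DAP libraries. The photosynthesis gene *Zm00001d001857*, a light-harvesting subunit, overlapped between the stages, with 4.60, 9.39 and 4.14 FPKM at 12 DAP and 3.61, 2.52 and 4.44 FPKM at 20 DAP.

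Lipid genes had a median of -0.76, and 3 of 13 were called lower, beside 15.7% of all genes, and none higher, whereas none was called after scaling. The count was 1 without replicate 1 of 12 DAP and 5 without replicate 1 of 20 DAP. Leaving out genes tested through 1 stage only, 2 of 12 were called lower, beside 43 of 331 among all genes. Outside that list, *Zm00001d002000* (lipoxygenase6), which adds oxygen to polyunsaturated fatty acids, was among the most evenly separated genes. It measured 12.4, 11.7 and 13.7 FPKM at 12 DAP and 4.65, 3.34 and 3.79 FPKM at 20 DAP, 3.17-fold lower (log2 fold change of -1.66 ± 0.17, SE, limma, adjusted p = 7.03e-05), or -1.12 on the log2 scale after scaling. It and Peroxidase 16 were the calls among 11 tested oxidoreductase and redox genes, 1 in each direction both as deposited and after scaling, with a list median of -0.70. There were 3 lower redox genes without replicate 1 of 12 DAP or replicate 3 of 20 DAP, and 2 without replicate 3 of 12 DAP or replicate 2 of 20 DAP. Of 21 mitochondrial genes 3 were called lower, beside 15.7% of all genes, and none higher, with a median of -0.43, and none after scaling. That count was 1 without replicate 2 and 5 without replicate 3 of 12 DAP. *Zm00001d000295* (Heat shock 70 kDa protein 10 mitochondrial), a chaperone, measured 39.9, 39.2 and 25.3 FPKM and then 16.9, 16.1 and 15.4 FPKM (-1.08, limma, adjusted p = 0.000946, and -0.53 after scaling). Without replicate 1 or replicate 2 of 12 DAP its log2 fold change was -0.96 and -0.98, below the threshold.

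The lists of the basic cell machinery had few calls, beside 15.7% lower among all genes, and medians near that of all genes. Of 25 genes of the cell cycle, DNA replication and microtubules, 1 was called lower and none higher, with a median of -0.45. That gene, *Zm00001d002186* (divergent spindle1), a kinesin motor that shapes the spindle in maize, measured 6.44, 4.51 and 5.37 FPKM at 12 DAP and 2.45, 1.72 and 2.01 FPKM at 20 DAP (-1.36, limma, adjusted p = 0.000307, and -0.82 after scaling). Outside the list, *Zm00001d002069* (DNA topoisomerase 2), which untangles DNA at division, measured 22.9, 23.4 and 14.4 FPKM and then 8.33, 5.48 and 10.7 FPKM (-1.31, limma, adjusted p = 0.00193, and -0.77 after scaling). The values of both genes did not overlap between the stages. The cell cycle list held 2 lower calls without replicate 3 of 12 DAP or replicate 1 of 20 DAP. None of the 4 tested histone and chromatin genes was called by limma in either way, at a median of -0.47, while 2 of them had an adjusted p-value under 0.05 in the lower direction without the fold threshold.

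Of 22 RNA processing genes 2 were called lower (median -0.47, 1 after scaling), and of 15 ribosome and translation genes 1 was called lower (median -0.56, 1 after scaling), with none higher. *Zm00001d001774* (Probable CCR4-associated factor 1 homolog 11), an enzyme that shortens poly(A) tails of mRNA, is the member called both ways and stands in both lists. It measured 8.88, 20.9 and 9.76 FPKM at 12 DAP and 2.99, 2.74 and 1.49 FPKM at 20 DAP, so that the 12 DAP values were uneven but all above those of 20 DAP, and the log2 fold change was -2.35 ± 0.32 (SE, limma, adjusted p = 0.000291), or -1.81 after scaling. *Zm00001d001882* (Signal recognition particle 19 kDa protein), which helps to deliver new proteins to the endoplasmic reticulum, was lower by -1.15 (limma, adjusted p = 0.000593), with -0.61 after scaling. In the list of protein folding and the endoplasmic reticulum 2 of 16 genes were called lower, this one and the mitochondrial Hsp70, with a median of -0.55 and none after scaling. The count was 1 without replicate 1 or 2 of 12 DAP.

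Of 21 genes of ubiquitin and protein degradation 1 was called lower and none higher, with a median of -0.56 and none after scaling. *Zm00001d001966* (26S proteasome non-ATPase regulatory subunit 7 homolog A) measured 23.1, 22.4 and 17.8 FPKM at 12 DAP and 10.4, 9.69 and 9.39 FPKM at 20 DAP (-1.09, limma, adjusted p = 0.000372, and -0.54 after scaling). The most abundant gene of the table at both stages, *Zm00001d001913* (Ubiquitin-conjugating enzyme E2 11), measured 316, 327 and 298 FPKM and then 233, 207 and 228 FPKM. It did not overlap between the stages (-0.49, limma, adjusted p = 0.000395), but it was at 0.06 after scaling (adjusted p = 0.53) and its share of the listed FPKM was 6.79% ± 0.232 at 12 DAP and 7.15% ± 0.129 at 20 DAP (SD, n = 3). *Zm00001d000300* (Eukaryotic translation initiation factor 5), which helps to set the start codon, moved alike, with -0.46 as deposited (limma, adjusted p = 0.00514) and 0.10 after scaling (adjusted p = 0.538). The 5 most abundant genes together took 22.3% of the listed FPKM at 12 DAP and 21.2% at 20 DAP.

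Vesicle traffic and Golgi genes had a median of -0.74, with 2 of 25 called lower and none higher, and 1 called lower after scaling. *Zm00001d000424* (Phytolongin Phyl1.1), a SNARE-like protein of membrane fusion, measured 4.01, 4.40 and 2.67 FPKM at 12 DAP and 1.16, 1.06 and 0.978 FPKM at 20 DAP, with -1.68 (limma, adjusted p = 0.000291), or -1.15 after scaling. *Zm00001d000301* (exocyst subunit exo70 family protein G1), of the complex that tethers vesicles to the plasma membrane, measured 6.81, 6.23 and 5.08 FPKM and then 2.54, 2.52 and 2.50 FPKM, with -1.22 (limma, adjusted p = 0.000291), or -0.68 after scaling. Both genes were clearly separated, and the 20 DAP replicates of the exocyst gene were nearly equal. The exocyst gene was also the 1 lower call among 11 cell wall genes, whose median was -0.43 with none called after scaling, and of which 2 were called without replicate 3 of 12 DAP.

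In the remaining lists the calls were scattered, and each count of lower genes stands beside 15.7% among all genes. Of 33 genes of defence, wounding and stress, 3 were called higher (2.03% of all genes) and 6 lower (15.7% of all genes) with a median of -0.48, and 4 were called higher and 3 lower after scaling. The higher ones were Peroxidase 16 and the wound-responsive genes *Zm00001d002158* and *Zm00001d002160*. Leaving out genes tested through 1 stage only, 3 of 32 were called higher and 5 lower. Of 14 genes of abscisic acid and seed maturation 3 were called lower and none higher (median -0.55, 1 lower after scaling), and the 3 were *APETALA 2*, the serine synthesis enzyme and the proteasome subunit, which are not storage or desiccation proteins. Of 21 protein kinases and phosphatases 2 were called lower (median -0.57, none after scaling), with 1 left without replicate 1 of 12 DAP or replicate 3 of 20 DAP and 0 without replicate 2 of 12 DAP. Leaving out genes tested through 1 stage only, 1 of 20 was called lower. Of 7 genes of cell death, senescence and autophagy 1 was called lower (median -0.52, none after scaling), *Zm00001d001772* (Protein YLS9), at -1.08 (limma, adjusted p = 0.0044), which was below the fold threshold without replicate 3 of 12 DAP (-0.85) or replicate 3 of 20 DAP (-0.92).

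**Figure D4:**
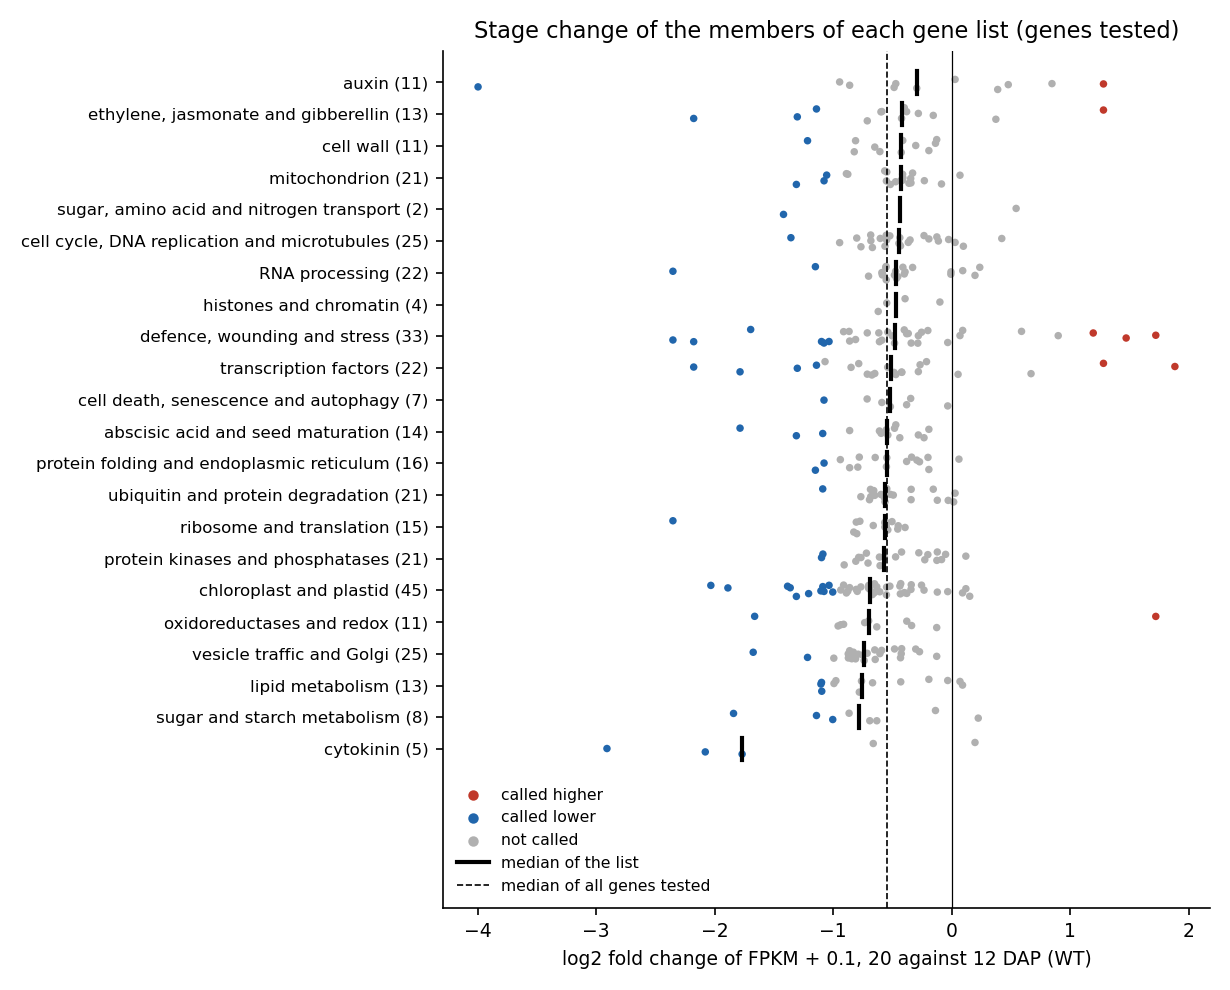
Log2 fold change of FPKM + 0.1 between 20 and 12 DAP for each tested member of the 22 gene lists, with the number of genes tested in brackets. Thick bars are list medians and the dashed line is the median of all 344 genes tested (-0.55), which moves to about 0 after median of ratios scaling, so that the direction of members between that line and 0 turns. The cytokinin list, at a median of -1.77 over 5 genes, includes 2 that passed the filter only through the 12 DAP libraries, and its median is -0.66 without them.

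Falls outside the functional lists completed the set of largest changes. *Zm00001d002019*, with no function in its description, measured 1.64, 1.40 and 1.73 FPKM at 12 DAP and 0.468, 0.192 and 0.330 FPKM at 20 DAP (-2.02, limma, adjusted p = 0.00344, and -1.56 after scaling). *Zm00001d000028* (hydroxyproline-rich glycoprotein family protein), of a group of extracellular proteins, measured 1.61, 1.602 and 2.58 FPKM and then 0.374, 0.414 and 0.762 FPKM (-1.74, limma, adjusted p = 0.00316, and -1.25 after scaling). The stages did not overlap in either gene, but both were tested only through 12 DAP, so this was fixed by the filter. At a pseudocount of 1 FPKM they were at -0.97 and -0.94 and lost the call. Other lower genes named above that lost it there were *Zm00001d000227*, *Zm00001d000301*, *Zm00001d001772*, *Zm00001d001812*, *Zm00001d001882* and *Zm00001d002079*, at log2 fold changes between -0.99 and -0.85. Of the 61 called genes 9 have no description.

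The genes of the interval to which *smk7a* was mapped were read in the WT as well. *Zm00001d001824* (Dof zinc finger protein DOF1.6), a transcription factor, was the most abundant of them, with 63.2, 63.2 and 58.4 FPKM at 12 DAP and 46.1, 35.2 and 59.9 FPKM at 20 DAP. The stages overlapped through replicate 3 of 20 DAP (limma, adjusted p = 0.051). *Zm00001d001825* (a WD40 repeat-like protein) stood at 5.88, 5.09 and 4.45 FPKM and then at 3.23, 2.77 and 2.53 FPKM without overlap and did not reach the fold threshold. *Zm00001d001819*, an enzyme of GPI anchor synthesis, overlapped between the stages, with 1.95, 1.48 and 1.94 FPKM and then 1.95, 1.39 and 1.08 FPKM.

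Whether the WT change differed from that of the mutant was tested as the difference between the 2 stage changes over all 12 libraries. Of 375 genes tested, 79 had an adjusted p-value under 0.05 (21.1%), of which 49 changed more positively in *smk7a* and 30 more negatively. Among the 61 genes called in the WT, 22 were past that threshold, 19 of the lower and 3 of the higher ones. These genes were picked by their WT change, which also enters the difference. Their count is therefore not support for a difference between the genotypes. The *smk7a* stage change was below 0 for 43 of the 54 genes that were lower in the WT and above 0 for 5 of the 7 that were higher. The median *smk7a* change over the genes tested in the WT was -0.41. Changes below 0 were thus common among all of these genes, and the 43 of 54 are not read as particular to the called ones. After median of ratios scaling, 90 genes passed, and 76 of the 79 were among them with the same sign.

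Of the 3 cytokinin genes called in the WT, 2 differed in direction between the genotypes and 1 had no detected difference. *Zm00001d000134* was at 0.328, 0.300 and 0 FPKM in *smk7a* at 12 DAP and reached 1.06, 0.820 and 1.89 FPKM by 20 DAP, opposite in direction to the WT, with a difference of 4.40 on the log2 scale (limma, adjusted p = 0.00272). *Zm00001d000237* was at 0.814, 2.004 and 1.497 FPKM and then at 6.26, 5.99 and 4.50 FPKM in *smk7a*, a difference of 3.72 (limma, adjusted p = 0.000718). The third cytokinin gene, *Zm00001d001865*, had a log2 fold change of -2.49 in *smk7a*, a difference of 0.42 (limma, adjusted p = 0.493). *BETL4* measured 67.5, 90.0 and 81.8 FPKM in *smk7a* at 12 DAP and 54.7, 151 and 156 FPKM at 20 DAP, so that the mutant replicates overlapped between the stages while those of the WT did not. Its difference was 1.66 (limma, adjusted p = 0.0226), and it was not past the threshold without replicate 2 or 3 of *smk7a* at 20 DAP or replicate 2 of the WT at 20 DAP. *Dull endosperm1* measured 17.7, 9.08 and 17.7 FPKM and then 26.8, 28.1 and 27.2 FPKM in *smk7a*, a difference of 1.64 (limma, adjusted p = 0.00336).

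**Figure D5:**
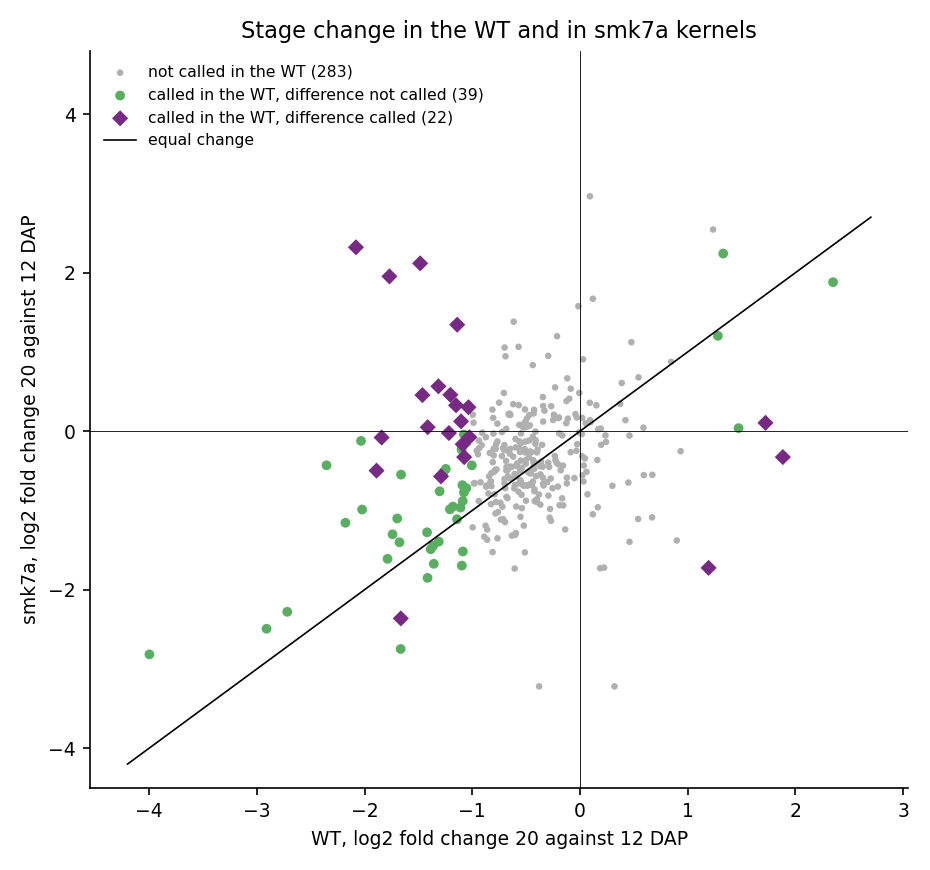
Log2 fold change of FPKM + 0.1 between 20 and 12 DAP in *smk7a* against that in the WT for the 344 genes tested in the WT. Diamonds are the 22 genes that were called in the WT and whose difference between the genotypes had an adjusted p-value under 0.05, and the solid line marks equal change. The diamonds above 0 on the vertical axis and at the left, with *Zm00001d000134* the highest, are genes lower at 20 DAP in the WT and higher in *smk7a*.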

How the data were processed

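Kernel RNA was sequenced by the authors from stranded mRNA libraries. Low-quality reads and adaptors were removed (Trimmomatic in the submitters' processing notes), reads were mapped with HISAT2 to B73 RefGen_V4, and only perfectly matching reads were kept. The authors deposited FPKM per gene and library. The program that made the FPKM is not given in the sources used here. The table as given for analysis stops at 720 genes. None of its identifiers (0 of 720) matched the RefSeq table, which is of another assembly, so no coordinates or sequences are given. Relative depth was not established. A ratio to WT 12 DAP replicate 1, read from low FPKM values of few genes, was between 0.978 and 1.02. Only ratios near 1 were kept for it, so it was bound to lie near 1 and does not show equal depth.

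Genes above 1 FPKM in at least 3 of the 6 WT libraries were tested on log2(FPKM + 0.1) with limma 3.58.1 (R 4.3.3, variance trend, Benjamini-Hochberg over the genes tested). The difference between genotypes was fitted over all 12 libraries. All adjusted p-values are from limma. P-values measure the spread between these libraries. In simulated data of 344 genes, 94.5% of changes of 1.5 and 97.4% of changes of 2 (log2) were recovered. The simulation had as many rises as falls and no shift of the whole set. It therefore does not give the recovery in these data, nor that of changes near the fold threshold.

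Genes were named by rule, namely the largest non-overlapping rises and falls that keep their direction after scaling, up to 4 per list, markers, the most abundant genes, genes named in the study and the largest differences between genotypes. Not every gene of the rule is described, and *Zm00001d000204*, *Zm00001d000256*, *Zm00001d001959*, *Zm00001d001996*, *Zm00001d002069*, *Zm00001d002137*, *Zm00001d002158* and *Zm00001d002161* are outside it and were chosen after their values were seen. The 22 lists are word searches over the deposited annotation and overlap. The members, lists and rules were chosen with earlier results of these data known. Alternatives were other pseudocounts, filters, scalings, variance settings, thresholds, a replicate block and leaving out each library. Other steps ran in Python 3.11.15 (matplotlib 3.10.9 for plots, pandas 2.3.3, numpy 2.4.6).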

Additional observations from a re-analysis of the deposited data

Results flagged for a closer look

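For the genes named in the text, those below differed between the WT and *smk7a* in their change from 12 to 20 DAP by limma's test of the difference (Benjamini-Hochberg adjusted p under 0.05 over 375 genes). Values are the *smk7a* change minus the WT change on the log2 scale. Picking genes by their WT change therefore favours a difference of the opposite sign. The cytokinin-annotated genes *Zm00001d000134* (4.40) and *Zm00001d000237* (3.72) and the undescribed gene *Zm00001d002132* (3.60) fell in the WT, where *Zm00001d002132* measured 40.1, 39.3 and 15.8 FPKM and then 8.27, 9.997 and 13.5 FPKM, and their *smk7a* changes were 2.32, 1.95 and 2.12. *Zm00001d000256*, described as the probable calcium-binding protein CML21, fell by 1.14 in the WT and changed by 1.34 in *smk7a*, a difference of 2.48 (limma, adjusted p = 9.02e-05).

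Among the other genes that were called lower in the WT, the difference was 1.88 for *Zm00001d002069* (DNA topoisomerase 2), 1.76 for *Zm00001d001999* (Galactose mutarotase-like), 1.66 for *BETL4*, 1.48 for *Zm00001d001882* (Signal recognition particle 19 kDa protein), 1.46 for *Zm00001d000204* (sulfate transporter 3.4) and 1.39 for *Zm00001d000399* (chloroplast protein synthesis2). It was 1.23 for *Zm00001d002028* (FATTY ACID EXPORT 2), 1.19 for *Zm00001d000301* (exo70 G1) and 0.92 for *Zm00001d001966* (proteasome subunit 7). Only *Zm00001d002000* (lipoxygenase6) among these named genes had a negative difference (-0.70), with a change of -2.36 in *smk7a* and -1.66 in the WT. Of genes without a call in the WT, the difference was 1.64 for *dull endosperm1* and 0.65 for *Zm00001d001913* (Ubiquitin-conjugating enzyme E2 11).

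The named genes higher at 20 DAP in the WT that passed had negative differences, a sign that the choice of genes favours. They were -2.92 for *Zm00001d002160* and -2.28 for *Zm00001d002161* (wound-responsive family proteins), -2.21 for *Zm00001d002088* (WRKY), -1.62 for *Zm00001d002004* (Peroxidase 16) and -1.15 for *Zm00001d002137* (precursor elicitor peptide1). The WRKY value passed the threshold as fitted (adjusted p = 0.0375) and lost it with the replicate block and in 8 of the 12 fits with 1 library left out. *Zm00001d001771* (Eukaryotic aspartyl protease family protein) differed by -3.54 (limma, adjusted p = 0.000171). It measured 12.3, 13.7 and 5.26 FPKM and then 12.5, 10.6 and 13.1 FPKM in the WT, and 65.6, 65.4 and 44.9 FPKM and then 5.24, 6.82 and 6.37 FPKM in *smk7a*.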

How the results depend on the processing

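The direction of the whole set rested on the scaling. Beside 61 called genes (7 higher, 54 lower), there were 32 (17 and 15) after median of ratios, 31 (13 and 18) after upper quartile and 33 (18 and 15) after total scaling. Other choices moved counts without turning the split, with 33 genes (28 lower) at a pseudocount of 1, 28 (23 lower) for genes with a mean above 5 FPKM, 210 (15 higher, 195 lower) without the fold threshold and 23 (2 and 21) in limma's test against a fold change of 1.5. With 1 library left out, between 47 and 66 genes were called. Non-overlapping genes numbered 147 (75 higher, 72 lower) after median of ratios scaling, beside 233. The replicate block gave 61 genes, the same as without it, and 76 beside 79 for the difference between genotypes. The same-numbered libraries correlated by 0.06, 0.02 and 0.10 in their deviations, so the numbers were not taken as pairs.

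Directions turned after median of ratios, upper quartile and total scaling for *endosperm specific protein1* (0.14, 0.053 and 0.15) and *Zm00001d000300* (0.10, 0.010 and 0.11), after median of ratios and total scaling for *Zm00001d001913* (0.060 and 0.074), and without 12 DAP replicate 3 for *Zm00001d001771* (-0.11, with up to 0.57 when another library was left out). Of the fold changes of 53 genes under the alternatives, 877 kept direction and call, 103 lost the call and 29 gained one. Read depth was not used, and fold changes of genes near 1 FPKM or below depend on the pseudocount.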
